A study of Homo sapiens with 6 samples.

Results

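The LINC-named long noncoding RNAs are the genes that the deposited table lists under a provisional name made of LINC and a number. Members were chosen by their name and by a sum of at least 60 reads over the 6 libraries, which selected 57 of the 83 LINC names among 17222 gene names. The choice used the sum over both groups and no test of the difference, but a low RNA can reach such a sum through the group where it is high. H226 is an established human cell line from a squamous carcinoma of the lung. Cells of this line were transfected with either a control antisense oligonucleotide, ASO_CTRL, or ASO_LINC#3, which is directed against the lncRNA SWINGN, and harvested 48 h later, with 3 libraries in each group. Cells of both groups therefore went through transfection with an oligonucleotide, and with a single oligonucleotide against SWINGN an effect of that sequence cannot be told apart from an effect of losing the RNA. SWINGN itself was not analysed here, so the knockdown is not checked in these libraries. Nothing in the labels says that the 3 libraries of a group came from separate cultures, and p-values measure the spread between these libraries.

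Long noncoding RNAs are transcribed by RNA polymerase II and often spliced like mRNAs, but most encode no conserved protein. Some act where they are made, on chromatin and on genes close by, and others act in trans by binding proteins or other RNAs. The LINC prefix is given to an intergenic noncoding gene until a function is known, so that genes of very different kinds share it. Several were renamed after a role was found, and some of them turned out to encode small proteins. SWINGN is described as made at an enhancer and bound to SMARCB1, a core subunit of the SWI/SNF chromatin remodelers. The comparison asked which of its fellow LINC-named RNAs changed when it was targeted.

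Reads counted on genes ranged from 5738340 to 10546786 in the control libraries and from 3686828 to 6780016 in the ASO_LINC libraries, where replicate 3 was the shallowest. Reads that were not aligned made up from 13.2% to 14.1% of the control libraries and from 15.8% to 16.4% of the ASO_LINC libraries, and the part of this difference in the results was not tested. All 8 markers of simple epithelium and mesothelium were analysed, with KRT7 at 3822 ± 309 and KRT18 at 5086 ± 151 CPM (read counts scaled to the size of the library, SD, n = 3) in control cells. This list summed to between 12405 and 13475 CPM in the control libraries and to between 7312 and 12756 CPM in the ASO_LINC libraries, and CALB2, a mesothelial marker, was called lower, from 601 to 154 CPM. The mesothelial list also held MSLN, WT1 and UPK3B, at 29.1, 46.0 and 49.4 CPM in control cells. Of the 6 squamous and basal markers 2 were analysed, KRT5 at 103 ± 12.3 CPM and KRT6A at 0.032 ± 0.055 CPM in control cells. The squamous name is that of the line, and these markers do not settle it. The 3 fibroblast markers analysed of 4 summed to between 397 and 494 CPM in the control libraries and to between 222 and 253 CPM in the ASO_LINC libraries, and COL1A1 and PDGFRB among them were called lower. Of the leukocyte markers only CD68 was analysed, with sums from 1.08 to 1.89 CPM in the control and from 2.79 to 6.51 CPM in the ASO_LINC libraries. The part of these markers in the results was not tested.

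Among the 57 RNAs, 54 passed the filter on low counts and were tested, and 6 were called at an adjusted p-value below 0.01 with a log2 fold change beyond 0.5 (edgeR, quasi-likelihood F-test, Benjamini-Hochberg adjustment over all 14660 tested genes). LINC00520, LINC00887 and LINC00623 were higher after ASO_LINC transfection. LINC00963, LINC00842 and LINC00173 were lower. The 6 called RNAs are 11.1% of the members tested, against 7.54% of all genes tested. By direction, 3 of 54 stand against 4.91% of all genes called higher, and 3 of 54 against 2.63% called lower. LINC00520, with 9 control and 85 ASO_LINC reads, and LINC00887, with 28 and 67, owed most of the reads that made them members to the ASO_LINC libraries. The shares are therefore given as a description and support nothing about the members as a group. In bulk RNA, fewer cells that express an RNA and less of it in each cell cannot be told apart.

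The promoters of the called RNAs are printed to show their letters, and base composition was not tested against the direction of change. They cover 250 bases before and 50 bases after the gene start in RefSeq (GRCh38.p14, as in all promoter coordinates here), 5′ to 3′ on the strand of the gene. Capitals mark matches on either strand to the AP-1 site TGANTCA, the cyclic AMP element TGACGTCA, the hypoxia response core ACGTG, the TATA box TATAAA, the CCAAT box CCAAT and the GC box GGGCGG, and runs of capitals can hold overlapping or adjacent matches. The called RNAs with a promoter in the RefSeq table are given in the order lower, then higher.
LINC00963 (chr9:129488410-129488709, plus strand): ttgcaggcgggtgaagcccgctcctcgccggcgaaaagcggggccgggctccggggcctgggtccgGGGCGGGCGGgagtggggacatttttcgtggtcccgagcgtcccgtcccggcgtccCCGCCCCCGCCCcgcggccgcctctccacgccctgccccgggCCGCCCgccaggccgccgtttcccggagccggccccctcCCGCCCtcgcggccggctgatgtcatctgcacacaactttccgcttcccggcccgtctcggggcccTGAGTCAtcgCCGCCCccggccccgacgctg
LINC00842 (chr10:46398112-46398411, plus strand): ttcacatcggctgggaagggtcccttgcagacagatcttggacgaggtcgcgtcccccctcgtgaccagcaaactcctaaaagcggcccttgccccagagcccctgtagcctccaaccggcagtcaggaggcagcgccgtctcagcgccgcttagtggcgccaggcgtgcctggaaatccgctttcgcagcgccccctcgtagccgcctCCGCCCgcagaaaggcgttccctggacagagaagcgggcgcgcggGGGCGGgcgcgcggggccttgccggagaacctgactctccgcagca
LINC00173 (chr12:116533172-116533471, plus strand): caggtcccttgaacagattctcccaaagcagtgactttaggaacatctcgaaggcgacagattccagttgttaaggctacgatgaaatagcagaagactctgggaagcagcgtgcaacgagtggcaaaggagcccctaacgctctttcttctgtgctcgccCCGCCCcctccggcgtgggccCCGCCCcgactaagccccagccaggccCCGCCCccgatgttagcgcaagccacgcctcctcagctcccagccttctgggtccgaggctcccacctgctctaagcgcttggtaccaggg
LINC00887 (chr3:194312755-194313054, minus strand): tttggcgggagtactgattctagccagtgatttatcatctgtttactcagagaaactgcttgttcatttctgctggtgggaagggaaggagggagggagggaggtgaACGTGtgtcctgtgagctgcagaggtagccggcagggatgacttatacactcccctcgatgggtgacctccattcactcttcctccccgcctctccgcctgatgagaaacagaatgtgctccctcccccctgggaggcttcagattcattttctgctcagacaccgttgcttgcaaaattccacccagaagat
LINC00623 (chr1:120911988-120912287, plus strand): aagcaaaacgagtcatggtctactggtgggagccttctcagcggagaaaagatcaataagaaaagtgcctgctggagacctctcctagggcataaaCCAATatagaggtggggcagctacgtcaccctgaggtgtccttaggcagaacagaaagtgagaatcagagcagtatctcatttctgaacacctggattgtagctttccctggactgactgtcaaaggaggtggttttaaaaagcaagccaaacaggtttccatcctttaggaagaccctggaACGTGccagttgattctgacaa

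The 3 promoters of RNAs that fell were 78.0% (LINC00963), 68.3% (LINC00842) and 61.0% (LINC00173) G and C, and each held at least 1 GC box. The other two, of LINC00887 and LINC00623, were 52.7% and 47.3% G and C and held no GC box. LINC00963 alone among the 5 held an AP-1 site, which began 20 bases after the gene start. Promoters were matched for 44 of the 57 members, with a median of 60.2% G and C against 58.7% over all 35116 promoters of the table. GC boxes were found in 19 of these 44 (43.2%) and in 45.0% of all promoters, and AP-1 sites in 5 of 44 (11.4%) and in 7.71% of all. The CCAAT box was found in 43.2% of member promoters and 34.6% of all, the hypoxia response core in 11 of 44 and 21.4%, the cyclic AMP element in 4.55% and 1.85%, and the TATA box in 4.55% and 11.5%. A match describes the letters of the window only, and none of these shares was tested.

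LINC00963, which has been studied in prostate and other carcinomas, carried the most reads of all members in each control library and came after LINC00152 and LINC00657 in each ASO_LINC library. Its levels were 159, 166 and 164 CPM in control replicates 1, 2 and 3, and 69.2, 64.2 and 90.3 CPM in ASO_LINC replicates 1, 2 and 3. Each ASO_LINC library was below each control library, with replicate 3 the highest of the knockdown group. Its log2 fold change was -1.13 (SE 0.15, edgeR adjusted p = 0.0007), with a 95% interval from -1.46 to -0.81. Its gene lies at chr9:132239225-132275966 on the plus strand (GRCh37, GENCODE) and shares 947 exon bases with an lncRNA annotated on the opposite strand, from which its reads could not be separated if strand was not used in counting.

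LINC00842 was counted 194, 206 and 351 times in the control libraries, or 26.1, 35.4 and 33.5 CPM, and 74, 77 and 45 times in the ASO_LINC libraries, or 10.9, 13.2 and 12.2 CPM. The knockdown libraries lay close together, well under the lowest control. The log2 fold change was -1.39 (SE 0.18, edgeR adjusted p = 0.00061). In GRCh37 the gene spans chr10:47011753-47174018 on the minus strand, whereas the promoter printed above is on the plus strand of GRCh38. In the GRCh37 layout the gene shares 121 exon bases with ANXA8L1, an annexin gene on the same strand. ANXA8L1 was called lower as well, with 304 CPM in the controls, 187 CPM after ASO_LINC and a log2 fold change of -0.70 (SE 0.14, edgeR adjusted p = 0.0071). ANXA8L1 has a near-identical copy, ANXA8, so its count is uncertain, and reads of the shared bases could have been counted on either gene.

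LINC00173 had far fewer reads, with 32, 30 and 56 reads in the controls and 11, 9 and 2 reads in the ASO_LINC libraries. In CPM this was 4.31, 5.16 and 5.34 against 1.62, 1.54 and 0.54. All ASO_LINC libraries were below the controls, and replicate 3 was the lowest of them. The log2 fold change was -1.88 (SE 0.34, edgeR adjusted p = 0.0042), with an interval from -2.63 to -1.14. The gene lies at chr12:116971227-116974323 on the plus strand of GRCh37.

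LINC00520, described in several carcinomas, was nearly silent in control cells, where 5, 0 and 4 reads were counted. The ASO_LINC libraries held 40, 31 and 14 reads, which is 5.88, 5.31 and 3.80 CPM against 0.67, 0 and 0.38 CPM in the controls. The groups were well apart on a small number of reads. The fitted log2 fold change of 3.69 (SE 0.49, edgeR adjusted p = 0.00071) depends on how 0 reads are handled, and its interval ran from 2.62 to 4.77. The gene lies at chr14:56247850-56263449 on the minus strand of GRCh37.

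LINC00887 and LINC00623 rose from a low but measurable level. LINC00887 had 0.94, 1.03 and 1.43 CPM in the controls and 3.38, 5.13 and 3.80 CPM after ASO_LINC, a log2 fold change of 1.80 (SE 0.33, edgeR adjusted p = 0.0044). It lies at chr3:194013980-194040660 on the minus strand of GRCh37 and shares 948 exon bases with an unnamed lncRNA on the opposite strand. LINC00623 had 4.44, 4.82 and 4.10 CPM in the controls and 8.82, 9.07 and 10.03 CPM after ASO_LINC, with little spread in either group, and its log2 fold change was 1.06 (SE 0.21, edgeR adjusted p = 0.006). It is one of 6 members without a position in the GRCh37 annotation used here.

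The calls were not equally firm. Over all genes tested, 1430 were called higher and 1186 lower without ASO_LINC replicate 3, against 720 and 386 with all libraries. Without any of the other 5 libraries, from 249 to 394 were called higher and from 110 to 171 lower. LINC00963, LINC00842 and LINC00520 were called in each of the 6 fits that left out 1 library. Their log2 fold changes ran from -1.29 to -1.04, from -1.51 to -1.30 and from 3.29 to 4.30. LINC00520, with 9 control and 85 ASO_LINC reads, became a member through the group where it is high. Its repeated calls therefore partly repeat that choice and are no separate test of its firmness. LINC00173, LINC00887 and LINC00623 were called without ASO_LINC replicate 3 and lost their call without any of the other 5 libraries. Their directions held, with log2 fold changes from -2.10 to -1.64, from 1.59 to 2.04 and from 1.00 to 1.12, and their edgeR adjusted p-values over the 6 fits ran from 0.0023 to 0.027, from 0.0029 to 0.0262 and from 0.0039 to 0.0426.

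**Figure D1:**
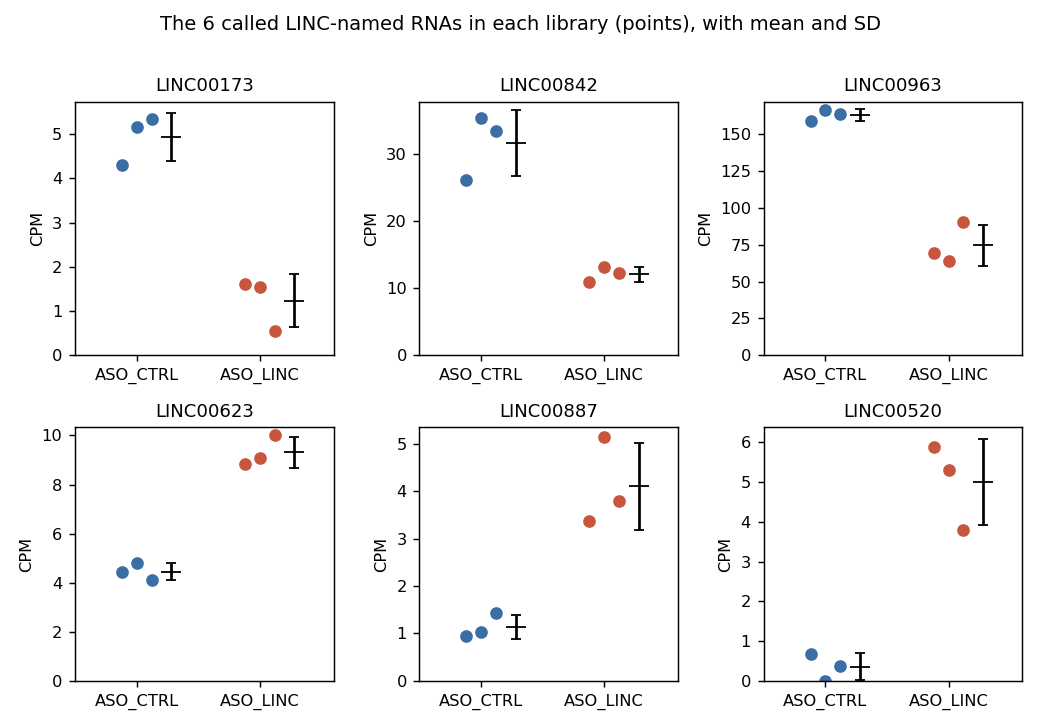
CPM (vertical axis, from 0, scaled by TMM) of the 6 called LINC-named RNAs in the ASO_CTRL libraries (blue) and the ASO_LINC libraries (red), 1 point per library in the order of the replicate number, with the mean and SD of the 3 libraries beside them in black. The groups do not overlap in any panel, and LINC00963 has the highest scale, from 64.2 to 166 CPM.

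Next to the called RNAs in the order of p-values stood LINC00452, which in the annotation lies across SWINGN on the opposite strand of chromosome 13 (chr13:114591279-114626485, GRCh37, plus strand) and shares 461 exon bases with it. If strand was not used in counting, reads of the targeted SWINGN could have been counted on LINC00452. The change of LINC00452 could then not be told apart from that of SWINGN. The study reports that SWINGN has no poly-A tail, and these libraries came from oligo-dT primed cDNA, which favours polyadenylated RNA. How many reads of SWINGN they held was not measured here. LINC00452 had 15.0, 12.7 and 13.8 CPM in the controls and 5.88, 8.56 and 7.32 CPM after ASO_LINC. Its groups did not overlap, and its log2 fold change was -0.94 (SE 0.20), yet the edgeR adjusted p of 0.0103 missed the threshold by a small margin. The nearest tested protein-coding gene was GAS6, 24230 bases away, which encodes the ligand of the TAM receptor kinases. GAS6 had 288 CPM in the controls and 191 CPM after ASO_LINC, a log2 fold change of -0.59 with an edgeR adjusted p of 0.0307. LINC00452 was called lower with DESeq2, limma-voom, upper quartile scaling or robust dispersion (edgeR), and without ASO_LINC replicate 3. The other member on chromosome 13, LINC00431, had from 7 to 15 reads in each library and did not pass the filter on low counts.

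Further members came close to the threshold. LINC00882 had 20, 18 and 19 reads in the controls and 7, 4 and 2 reads after ASO_LINC, with a log2 fold change of -1.61 (SE 0.41, edgeR adjusted p = 0.0216). LINC00857 had a log2 fold change of -0.60 (edgeR adjusted p = 0.0595), from 10.6, 9.81 and 9.73 CPM to 5.88, 7.53 and 6.51 CPM, and it too did not overlap between the groups. LINC00685 had 14.4, 12.7 and 12.2 CPM in the controls and 7.94, 6.85 and 11.1 CPM after ASO_LINC, with a log2 fold change of -0.63 (edgeR adjusted p = 0.0653). In each of these the ASO_LINC libraries were the lower ones, with LINC00685 closest to overlap through its replicate 3. Without ASO_LINC replicate 3, LINC00685 was called lower, as was LINC00085, the gene now known as SPACA6, which had 18.4 and 14.0 CPM in ASO_LINC replicates 1 and 2 but 29.8 CPM in replicate 3, above its controls of 24.1 to 27.95 CPM.

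Of a list of 9 LINC names with a later functional or host-gene name, 4 were members and 5 were not analysed here. The 4 were LINC00152, LINC00657, LINC00338 and LINC01021, and further members with later names were not on the list. By edgeR 0 of these 4 were called in either direction, against 7.54% of all genes tested, with a median log2 fold change of 0.38. So few RNAs cannot be set against this share. DESeq2 and limma-voom also called 0 of the 4, and 2 of them, LINC00152 and LINC01021, had an unadjusted p below 0.05, as did 32.4% of all genes tested. LINC00152 or CYTOR, a cytoplasmic and oncogenic lncRNA, had 102, 100 and 90.7 CPM in the controls and 135, 141 and 122 CPM after ASO_LINC. The groups did not overlap, and its log2 fold change of 0.44 (SE 0.13, edgeR adjusted p = 0.034) was below the fold threshold. A near-identical copy exists on the same chromosome, MIR4435-2HG, so that its reads are uncertain in assignment. LINC00657 or NORAD, which binds Pumilio proteins and protects genome stability, had 91.2, 94.99 and 95.9 CPM in the controls. Its ASO_LINC libraries split, with 124 and 131 CPM in replicates 1 and 2 and 93.8 CPM in replicate 3, within the range of the controls. The log2 fold change was 0.31 (SE 0.15, edgeR adjusted p = 0.171), and without replicate 3 it was 0.44 with an edgeR adjusted p of 0.0066, still under the fold threshold.

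LINC01021 or PURPL, an RNA induced by p53 that holds basal p53 down, showed the same split between libraries. It had 11.99, 8.26 and 12.2 CPM in the controls, 17.9 and 18.0 CPM in ASO_LINC replicates 1 and 2, and 11.7 CPM in replicate 3. Its log2 fold change was 0.56 (SE 0.23, edgeR adjusted p = 0.113). LINC00338 or SNHG20, a small nucleolar RNA host gene, had from 14.6 to 16.4 CPM in the controls and from 11.1 to 15.2 CPM after ASO_LINC, with a log2 fold change of -0.24 (edgeR adjusted p = 0.376).

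Of a list of 9 LINC names now known or annotated to encode small proteins, 3 were members, 2 were below 60 reads and 4 were not analysed here. Of the 3, 0 were called by edgeR, DESeq2 or limma-voom, against 7.54% of all genes tested that edgeR called. An unadjusted p below 0.05 (edgeR) was found for 0 of the 3, against 32.4% of all genes tested. So few RNAs cannot be set against these shares. LINC00116, now MTLN, encodes mitoregulin, a small protein of the inner mitochondrial membrane. It had 63.2, 54.7 and 61.8 CPM in the controls and 51.3, 51.0 and 46.4 CPM after ASO_LINC. Its groups did not overlap, and the log2 fold change of -0.27 had a 95% interval from -0.56 to 0.02 (edgeR adjusted p = 0.179). LINC00493, now SMIM26, also encodes a mitochondrial small protein, and its log2 fold change was 0.10 with an interval from -0.35 to 0.54, the ASO_LINC libraries running from 33.3 to 57.2 CPM around controls of 38.0 to 50.5 CPM. LINC00984, now INAFM2, had a log2 fold change of -0.07 with an interval from -0.69 to 0.56. For the mitochondrial pair the intervals leave room for a change of no more than 0.56 on the log2 scale.

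Of a list of 17 names described in carcinoma, 6 were members, 4 were below 60 reads and 7 were not analysed here. LINC00520 was called higher, LINC00963 was called lower and the other 4 were not called, with a median log2 fold change of 0.36 over the 6. Over all genes tested 4.91% were called higher and 2.63% lower, with a median of -0.0027, and 6 RNAs are too few to set against these shares. Besides LINC00857 and LINC00152, the uncalled ones were LINC00662 and LINC00941. LINC00941 had 8.75, 4.82 and 8.97 CPM in the controls and 10.7, 10.95 and 12.2 CPM after ASO_LINC, with a log2 fold change of 0.55 (SE 0.24, edgeR adjusted p = 0.144). LINC00662 had from 16.0 to 18.7 CPM in the controls and from 18.4 to 22.1 CPM after ASO_LINC, with a log2 fold change of 0.27 (edgeR adjusted p = 0.285).

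Over all 54 tested members the log2 fold changes were above 0 in 23 and below 0 in 31, with a median of -0.08 and quartiles at -0.33 and 0.28. Over all genes tested the median was -0.0027 and the quartiles were -0.31 and 0.31. The median change of the members was -0.01, -0.07 and -0.19 in ASO_LINC replicates 1, 2 and 3, a spread as large as the median itself. In 21 of the 54 the CPM of the groups did not overlap, which is 38.9%, against 36.1% of all genes tested. A change beyond 1 on the log2 scale was fitted for 7 members, 6 of them called and the seventh LINC00882, while 38 members were within 0.5. The 34 tested members not named so far had log2 fold changes between -0.89 (LINC01024) and 0.53 (LINC00888), and the smallest edgeR adjusted p among them was 0.16 (LINC00094).

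**Figure D2:**
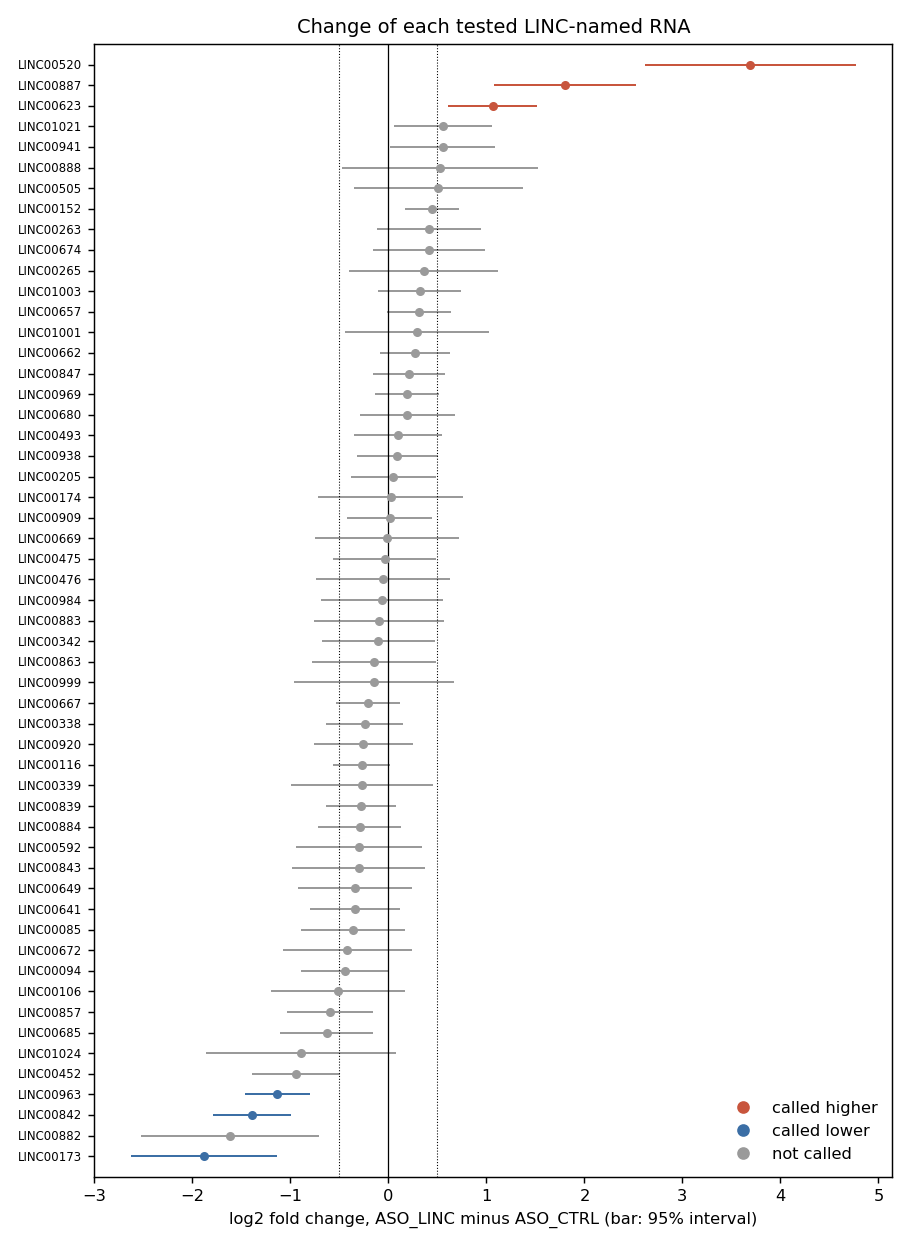
Log2 fold change (horizontal axis, ASO_LINC minus ASO_CTRL) of each of the 54 tested LINC-named RNAs in order of size, with the 95% interval as a bar. Red points were called higher, blue points called lower and grey points not called, and dotted lines stand at -0.5 and 0.5. Most intervals cross 0, and LINC00520 at 3.69 lies far to the right of the other members.

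The members took a small share of each library, which was lower in every ASO_LINC library than in any control. Their CPM summed to 915, 921 and 918 in the control libraries and to 857, 880 and 806 in the ASO_LINC libraries. Without LINC00963 the sums were 756, 755 and 754 in the controls and 788, 816 and 715 after ASO_LINC, so that the groups overlapped once that single RNA was left out. From 38.0% to 39.2% of the member reads in each library fell on the 3 most counted members. In all 6 libraries these were LINC00963, LINC00152 and LINC00657, with LINC00963 the most counted of them in the controls and the least counted after ASO_LINC. Over both groups LINC00116, LINC00493 and LINC00839 followed. LINC00839 had at least 31.4 CPM in each control and from 24.99 to 32.8 CPM after ASO_LINC, with a log2 fold change of -0.28 (edgeR adjusted p = 0.262). Per kilobase of annotated exons the control order was another, with 41.3 CPM for LINC00493, 29.2 for LINC00116, 17.4 for LINC00657, 11.6 for LINC00963, 5.49 for LINC00152 and 3.97 for LINC00839, on an annotation that may differ from that used in counting.

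By their median, members with more reads had a smaller standard error. Members of unlike read number could still have like errors, with 0.20 for LINC00493 at 1919 reads and for LINC00857 at 346 reads. The median standard error of the log2 fold change was 0.33 in the 22 tested members with fewer than 200 reads, 0.21 in the 18 with at least 200 but fewer than 600 reads and 0.16 in the 14 with 600 reads or more. The 95% interval lay inside a bound of 1 on either side of 0 for 35 of 54 members, and inside 0.5 for 2. Not called is therefore not the same as unchanged for most members. At the lower edge of the choice stood LINC00324 and LINC00630 with 62 reads each, and just outside LINC00936 and LINC01023 with 58 each. LINC00324 had 10, 8 and 9 reads in the controls and 13, 9 and 13 after ASO_LINC, and LINC00630 had 13, 4 and 13 against 20, 9 and 3. LINC00936 had 10, 6 and 5 against 9, 16 and 12 reads, and LINC01023 had 7, 3 and 23 against 11, 8 and 6.

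**Figure D3:**
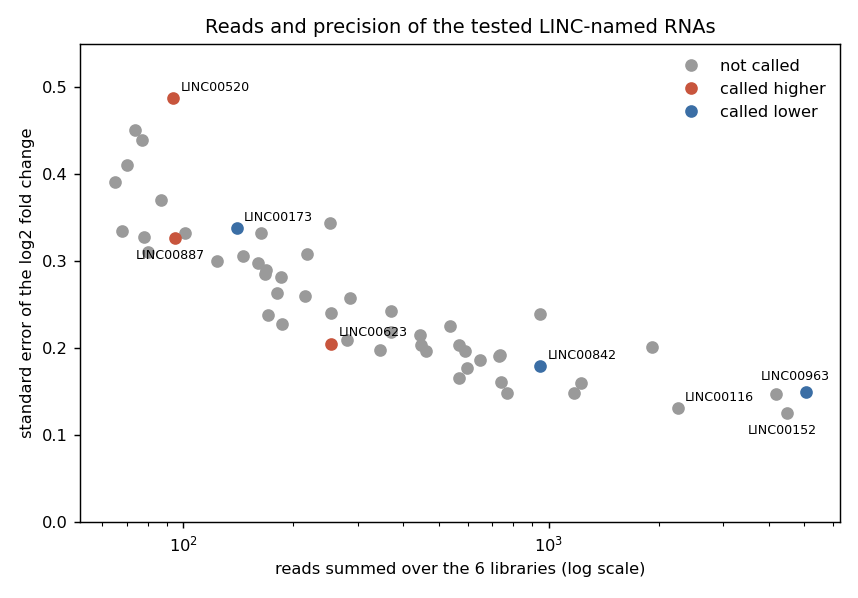
Standard error of the log2 fold change (vertical axis, from 0) against the reads summed over the 6 libraries (horizontal axis, log scale) for the 54 tested LINC-named RNAs, coloured by call. The error was largest for LINC00520 at 0.49 and smallest for LINC00152 at 0.13.

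The 57 RNAs were of mixed kinds and places. In the GRCh37 annotation 51 were found under their name or a later one, on 19 chromosomes, 40 of them annotated as lncRNA or lincRNA and 7 as protein-coding. RefSeq gave another name for 21 of the 57. Exon bases were shared with another annotated gene in 33 members and with a gene on the opposite strand in 21, so that without strand in the counting these reads cannot be assigned with certainty.

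Since lncRNAs can act on genes close by, each member was set beside its nearest tested protein-coding gene, which could be done for 48 tested members with 46 distinct neighbours. The 2 log2 fold changes had the same sign in 26 of the 48 pairs. Of the 48 neighbours 5 were called, or 10.4%, against 7.54% of all genes tested, and the called ones are given as values only. Of the 5 called members with a neighbour, 1 was called together with it in the same direction, which was LINC00842 with ANXA8L1. LINC00173 and MAP1LC3B2, a gene of the LC3 autophagy family 11587 bases away on the same strand, were called in opposite directions, MAP1LC3B2 rising from 16.4 to 33.1 CPM (log2 fold change 1.02, SE 0.15, edgeR adjusted p = 0.0014). LINC00963 and NTMT1, an N-terminal methyltransferase gene at 95197 bases, had log2 fold changes of -1.13 and 0.27, and that of NTMT1 was not called (edgeR adjusted p = 0.562). KTN1, which encodes kinectin and lies 79606 bases from LINC00520, had a log2 fold change of 0.09 with an edgeR adjusted p of 0.725. ATP13A3, a cation-transporting ATPase gene 82741 bases from LINC00887, had a log2 fold change of 0.51 with an edgeR adjusted p of 0.0808.

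Called neighbours also stood beside 3 of the uncalled members. CAPRIN2, which overlaps LINC00941 on the opposite strand, rose from 26.9 to 47.0 CPM (log2 fold change 0.80, edgeR adjusted p = 0.0033), beside 0.55 for LINC00941. RALA, a small GTPase gene 25310 bases from LINC00265, rose from 64.1 to 108 CPM (log2 fold change 0.75, edgeR adjusted p = 0.0036), beside 0.36 for LINC00265 (edgeR adjusted p = 0.507). CDH6, a cadherin gene, was 3695815 bases from LINC01021 and fell by 1.96 on the log2 scale (edgeR adjusted p = 0.00017), opposite in sign to the 0.56 of LINC01021.

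**Figure D4:**
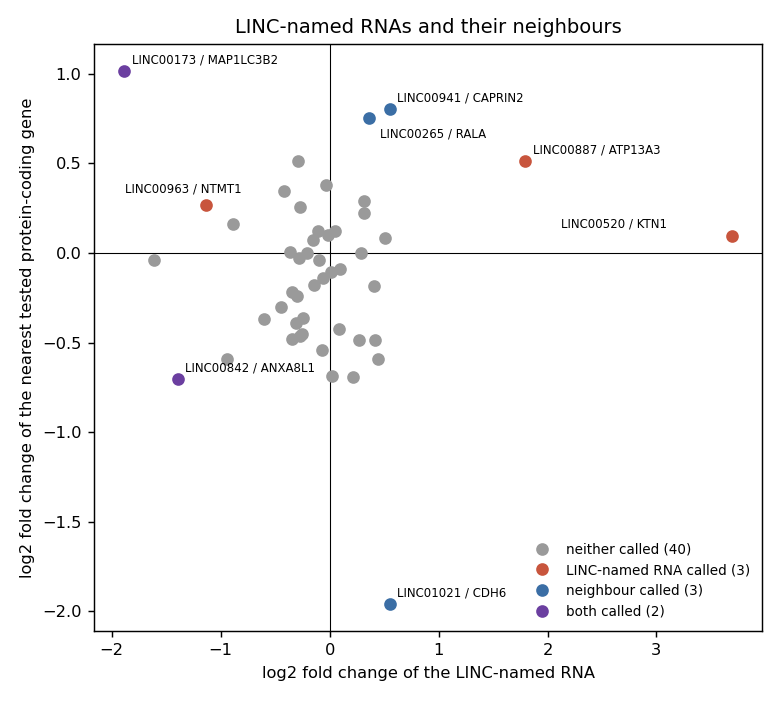
Log2 fold change of 48 tested LINC-named RNAs (horizontal axis) and of the nearest tested protein-coding gene of each (vertical axis), coloured by which of the pair was called. Of the 2 pairs with both called, LINC00842 and ANXA8L1 lie in the lower left, and LINC00173 and MAP1LC3B2 in the upper left.

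For comparison, 2 other groups of noncoding RNA names were taken from the same table with the same read minimum. Of 141 antisense RNAs, named after the gene on the other strand, 138 were tested, 3 were called higher and 2 lower, or 3.62%, with a median log2 fold change of -0.24. Of the 16 small nucleolar RNA host genes with MALAT1 and NEAT1, all were tested and 0 were called by edgeR, 2 by DESeq2 and 1 by limma-voom, with 4 at an unadjusted p below 0.05 (32.4% of all genes tested) and a median of -0.10. Over all genes tested edgeR called 7.54%. The members, with 11.1% called and a median of -0.08, were not tested against either group.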

How the data were processed

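RNA of H226 cells was sequenced in 3 ASO_CTRL and 3 ASO_LINC libraries from oligo-dT primed cDNA, which favours polyadenylated RNA. Reads were aligned by the authors with STAR (hg19), and the deposited values are raw counts of reads per gene, neither normalized nor pooled. The counting program, annotation and strand setting are not given in the sources used here. The study's methods name BJ cells for RNA-seq where the labels name H226, and the labels were followed. Closing totals of reads on no gene, from 24.8% to 28.1% of a library, were left out, and 1 name listed on more than 1 row was kept as listed.

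Groups and replicate numbers were taken from the labels. Genes were filtered with filterByExpr, scaled by TMM and tested in R 4.3.3 with the edgeR 4.0.16 quasi-likelihood F-test over 14660 genes, without a replicate term, after the design of the study. Calls needed an adjusted p below 0.01 together with a log2 fold change beyond 0.5. CPM use TMM-scaled sizes, changes of single libraries a prior count of 2, and ± is the SD. The biological coefficient of variation came to 0.159 in common. Libraries within a group differed in their counts by more than sampling noise (chi-square per degree of freedom from 2.63 to 15.6). The value was 2.63 for ASO_LINC replicates 1 and 2, and 14.4 and 15.6 for replicates 1 and 2 against replicate 3. It ran from 7.45 to 13.1 between control libraries. Each library was counted as 1 replicate, which these values do not show to be a separate culture. Alternatives were DESeq2 1.42.0, limma-voom (limma 3.58.1), other scalings and filters, other thresholds, a replicate block and leaving out each library. In simulated data with 14400 genes for this comparison, a log2 change of 1 was called in 37 of 98 genes and one of 2 in 94 of 96, and 3 of 14206 unchanged genes were called. Positions are from GENCODE lifted to GRCh37, promoters from RefSeq.

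Members and gene lists were chosen with earlier results of these data known. Named were all called members, the 5 uncalled ones with the smallest p, the 6 with the highest CPM, those of the fixed lists and of chromosome 13, those at the edge of the read minimum, and the nearest protein-coding genes of called members. LINC00085, LINC00094, LINC00265, LINC00888 and LINC01024, and the neighbours of uncalled members, were named after their values were seen.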

Additional observations from a re-analysis of the deposited data

Results flagged for a closer look

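LINC00545 was below the minimum of 60 reads and so no member, yet it stood above the control level: it had 1, 0 and 1 reads in the control libraries and 17, 22 and 13 reads in the ASO_LINC libraries. Its mean was 3.26 ± 0.67 CPM after ASO_LINC (SD, n = 3), which is at least 8.11-fold higher than the level of 3 reads in each control library. LINC00545 was picked after its values were seen, as a LINC name below the minimum that edgeR called higher (adjusted p = 0.00027). That call, and those in each of the 6 fits that left out 1 library, therefore repeat the choice and are no separate test. Nearly all of its reads came from the ASO_LINC libraries, so it passed the filter on low counts through the group where it is high.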

How the results depend on the processing

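The main counts of 3 members called higher and 3 called lower stayed within 1.5 times under DESeq2, limma-voom, DESeq2 size factors, upper quartile scaling, library size only, no filter and robust dispersion. Called higher was 1 with at least 10 reads in every library, with glmTreat, or among members with 120 or more reads, and called lower was 5 at an adjusted p of 0.05. Both read limits left LINC00520 and LINC00887 out of the count, so these were not tested and then lost. The limit of 10 reads in every library also left out LINC00173. With glmTreat LINC00887 and LINC00623 were tested and lost their call. Leaving out each library gave from 1 to 3 called higher and from 2 to 6 called lower, with 3 and 6 without ASO_LINC replicate 3, and 1 and 2 without any of the other libraries. Calls over all genes moved the same way, with 1430 higher and 1186 lower without ASO_LINC replicate 3. Without any of the other libraries, from 249 to 394 genes were called higher and from 110 to 171 lower. Leaving out a library changes the number of samples, and the cause of the difference between libraries was not tested. With a replicate block 2 were called higher and 2 lower, LINC00173 and LINC00623 losing their call. Same-numbered libraries correlated at 0.059, -0.15 and -0.18 in their deviations from the group mean, and differently numbered ones from -0.14 to 0.19. With so few libraries these values cannot tell whether the numbers pair the samples. The median of the members stayed below 0 under every alternative run, from -0.15 to -0.01 over the fits without 1 library, and moved by less than 0.09, its spread over the ASO_LINC libraries. The log2 fold change of LINC00493 ranged from -0.04 to 0.29 and that of LINC00984 from -0.19 to 0.16, and both turned sign without ASO_CTRL replicate 2 (-0.0064 and 0.16), LINC00493 without ASO_LINC replicate 2 (-0.038) and LINC00984 without ASO_LINC replicate 3 (0.08). Of 316 values of 20 named members under the alternatives, 286 kept their direction and side of the threshold, 20 lost a call, 6 gained one and 4 turned sign. The 286 include values of uncalled members that stayed uncalled. The lost calls were those of LINC00173 (7 of 15 values), LINC00887 (6 of 15) and LINC00623 (7 of 16). LINC00520, LINC00173, LINC00887 and LINC00882 had no value with at least 10 reads in every library. The count of a member and its neighbour called in the same direction was 1 at any distance and 1 within 100 kb. The median standard error was largest, at 0.33, in the 22 tested members below 200 reads.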
